A study of Mus musculus with 4 samples.

Results

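The genes examined here encode S100A proteins, a family of small calcium-binding proteins. They are the 8 genes S100a1, S100a4, S100a6, S100a8, S100a9, S100a10, S100a11 and S100a13, among 23756 genes in the deposited table. The set was chosen by the log2 fold changes measured in these same libraries, as a contrast of S100a8 and S100a9 with the other 6 genes after growth without IL-3, so the difference in that contrast is described and not tested. RNA-seq was performed on 2 libraries of 32Dcl3-Abl1ko cells growing with IL-3 (Abl1ko/IL3+) and 2 libraries of 32Dcl3-Abl1ko cells growing without it (Abl1ko/IL3-). 32Dcl3 is a line of mouse bone marrow cells that normally requires the cytokine IL-3 for survival and growth. Abl1 was edited by CRISPR/Cas9 from a lentiviral vector in both groups, and the cells without IL-3 are the growth factor-independent cells obtained after withdrawal of the cytokine. The study describes selection of single edited clones, and the labels do not say which clone, guide or population each library came from, so clone and IL-3 cannot be told apart in 4 libraries, and the spread between libraries of a group may be technical, clonal or both.

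S100 proteins carry a pair of EF-hand calcium-binding motifs, form dimers and change shape when calcium binds, which exposes a surface for partner proteins. S100A8 and S100A9 form the heterodimer calprotectin, which is stored in the cytoplasm of neutrophils and monocytes, binds zinc and manganese, and signals through Toll-like receptor 4 once released. The other proteins have mostly intracellular partners, among them annexins for S100A6, S100A10 and S100A11, non-muscle myosin for S100A4 and fibroblast growth factor 1 for S100A13.

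All 8 genes lie on chromosome 3 of GRCm38, in 2 blocks. The first holds 6 of them over 184688 bases. S100a1 (ENSMUSG00000044080) lies at chr3:90511034-90514392 on the minus strand. S100a13 (ENSMUSG00000042312) starts 42 bases further on, at chr3:90514435-90524581 on the plus strand, so the 2 genes are transcribed away from each other. S100a4 (ENSMUSG00000001020, chr3:90603771-90606045, plus strand) is followed after 2477 bases by S100a5 and, 1101 bases beyond that gene, by S100a6 (ENSMUSG00000001025, chr3:90612882-90624181, plus strand). S100a8 (ENSMUSG00000056054, chr3:90668978-90670035, plus strand) and S100a9 (ENSMUSG00000056071, chr3:90692632-90695721, minus strand) are 22596 bases apart. The second block begins 2824766 bases away and holds S100a11 (ENSMUSG00000027907, chr3:93520488-93526287, plus strand) and S100a10 (ENSMUSG00000041959, chr3:93555080-93564643, plus strand).

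The sequences just upstream of S100a8, S100a9 and S100a11 are shown because S100a8 and S100a9 differed most between the groups and S100a11 had the smallest range over the 4 libraries. They come from the RefSeq windows of GRCm38.p6, which take 250 bases before a gene's start, and bases inside the gene itself were left out. Capitals mark a PU.1 motif for S100a8 (GAGGAANT, read on the other strand as ACTTCCTC), a C/EBP core for S100a9 (TTGCNNAA) and AP-1 motifs for S100a11 (TGANTCA).
S100a8, chr3:90668821-90668977, plus strand: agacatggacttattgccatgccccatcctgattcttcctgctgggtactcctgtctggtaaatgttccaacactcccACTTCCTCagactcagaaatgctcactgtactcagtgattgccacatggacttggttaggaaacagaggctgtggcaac
S100a9, chr3:90695722-90695971, minus strand: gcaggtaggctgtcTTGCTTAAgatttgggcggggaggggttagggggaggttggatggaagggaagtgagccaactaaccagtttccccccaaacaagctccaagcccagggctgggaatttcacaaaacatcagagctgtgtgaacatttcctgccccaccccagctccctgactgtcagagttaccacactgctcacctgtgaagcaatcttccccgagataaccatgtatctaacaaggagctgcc
S100a11, chr3:93520246-93520487, plus strand: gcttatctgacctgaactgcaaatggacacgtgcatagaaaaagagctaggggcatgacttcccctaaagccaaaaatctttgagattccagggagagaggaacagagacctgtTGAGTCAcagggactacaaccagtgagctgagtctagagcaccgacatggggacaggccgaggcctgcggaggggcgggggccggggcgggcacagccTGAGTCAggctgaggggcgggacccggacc

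PU.1 and C/EBP are the factor families best known for granulocyte genes, and AP-1 joins proteins of the FOS and JUN families. Windows were available for 7 of the 8 genes, S100a10 being the exception. Searched on both strands, the PU.1 letters were found in 5.97% of all 32851 windows, the C/EBP core in 9.56% and the AP-1 letters in 6.75%. Among the 7 windows the PU.1 letters occurred for S100a8 only, the C/EBP core for S100a9 only and the AP-1 letters for S100a11 only, in 2 copies. A TATA box (TATAAA, on the gene's own strand, 7.59% of windows) started 31 bases before the S100a4 start and 30 bases before the RefSeq start of S100a8, the latter in the stretch not printed. A CCAAT box (either strand, 33.8% of windows) occurred for S100a6 only, and the S100a1 and S100a13 windows held none of the motifs searched. These matches describe letters in the windows and were not measured as bound sites.

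Library totals ran from 48953174 to 60382588 counts, so 3 counts, the limit set by a count of 0, corresponded to 0.0497 to 0.0613 CPM (read counts scaled to a common library total). The labels call the cells pre-B cells. The summed level of 5 promyelocyte granule genes was 1124 to 2520 CPM. Mpo (myeloperoxidase) was at 135 to 528 FPKM (the deposited level per gene length and library depth) and Ms4a3 at 204 to 259 FPKM. Ctsg was at 92.7 to 204 FPKM and Prtn3 at 48.9 to 68.6 FPKM, but Elane only at 2.10 to 4.54 FPKM. In contrast, 6 pre-B and B cell markers summed to 18.9 to 26.1 CPM. Of those, Cd79b reached 6.24 to 10.9 FPKM and Cd79a 0.431 to 6.41 FPKM, and Pax5 and Ebf1 were not analysed here. The libraries are therefore described by their group names and not as pre-B cells. Fibroblast and epithelial markers summed to 1.35 to 3.47 CPM, led by Dcn and Col1a1 at no more than 0.278 and 0.126 FPKM. Abl1 had 1322 and 2222 counts with IL-3 against 1544 and 2256 without, which does not test the edit, since small insertions and deletions can leave the RNA level as it was.

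S100a8 was the gene of the set with the widest range. In Abl1ko/IL3+ replicates 1 and 2 it reached 74 and 21 counts, against 3410 and 7167 counts in replicates 1 and 2 of Abl1ko/IL3-. Per length and depth this was 1.56 and 0.428 FPKM with IL-3 against 87.7 and 165 FPKM without it, or 0.995 ± 0.802 against 126 ± 54.4 FPKM (SD, n = 2 each). Both libraries without IL-3 were above both libraries with it, and the lower of the former exceeded the higher of the latter by 62.1-fold in CPM scaled by the trimmed mean of M-values (TMM). The fitted log2 fold change was 6.98, against a within-group SD of 0.84 on the log2 CPM scale. S100a8 ranked 11642 among all 23756 genes by mean FPKM with IL-3 and 453 without it.

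S100a9, the partner of S100a8 in calprotectin, was higher than S100a8 in FPKM in every library. It had 460 and 89 counts with IL-3 against 6735 and 21503 counts without, which is 13.1 and 2.50 FPKM against 230 and 657 FPKM. The group means were 7.83 ± 7.53 and 444 ± 302 FPKM (SD, n = 2 each). The groups did not overlap, and the lower Abl1ko/IL3- library exceeded the higher Abl1ko/IL3+ library by 19.7-fold in TMM-scaled CPM. The fitted log2 fold change was 5.86, with a within-group SD of 1.26, and the rank by mean FPKM moved from 5259 to 168. Values of this kind in a bulk library cannot tell a larger number of expressing cells from more RNA per cell.

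Both genes differed between libraries of the same group, and in the same direction. With IL-3, replicate 1 was above replicate 2 for S100a8 and S100a9, and without IL-3 replicate 2 was above replicate 1 for both. The spread between the Abl1ko/IL3- libraries lay at the 75.9th percentile of all genes tested for S100a8 and at the 88.4th percentile for S100a9, so their levels were less alike than those of most genes. The FPKM ratio of S100a9 to S100a8 was 8.42 and 5.85 with IL-3 against 2.63 and 3.99 without. The ratios of the groups did not overlap, although the ratios with IL-3 rest on as few as 21 counts of S100a8.

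**Figure D1:**
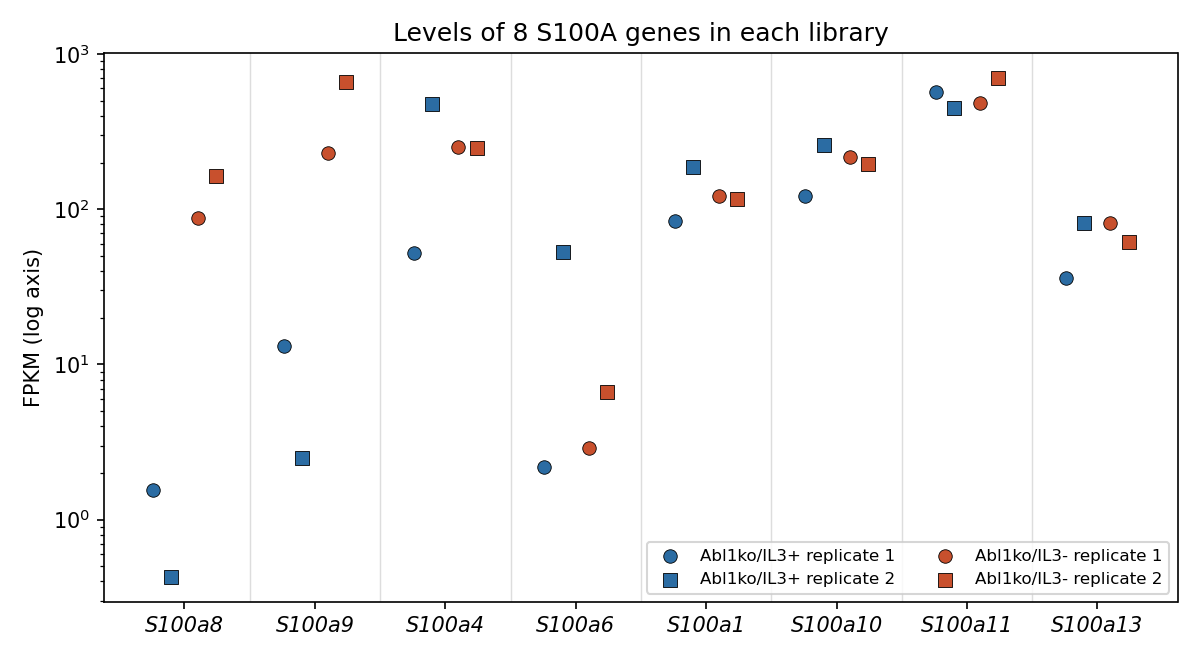
FPKM of the 8 S100A genes in each of the 4 libraries, on a log axis, with blue for Abl1ko/IL3+ and red for Abl1ko/IL3- and 1 point per library. S100a8 and S100a9 are the genes whose red points stand clear above their blue points, and S100a4 and S100a6 are those whose blue points lie furthest apart among the other 6.

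Of the 8 genes, 2 had groups that did not overlap with the higher values without IL-3, and none had the higher values with IL-3. Over all 16535 genes tested, 37.3% had groups without overlap, 19.4% with the higher values without IL-3 and 17.9% with the lower. Because this contrast was used to choose the set, nothing is read from the count. The median log2 fold change was 0.12 over the 8 genes and -0.03 over all genes tested. The mean log2 fold change of S100a8 and S100a9 exceeded the median of the other 6 genes by 6.51, and this gap was 4.80 without Abl1ko/IL3+ replicate 2 and 8.27 without Abl1ko/IL3+ replicate 1.

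**Figure D2:**
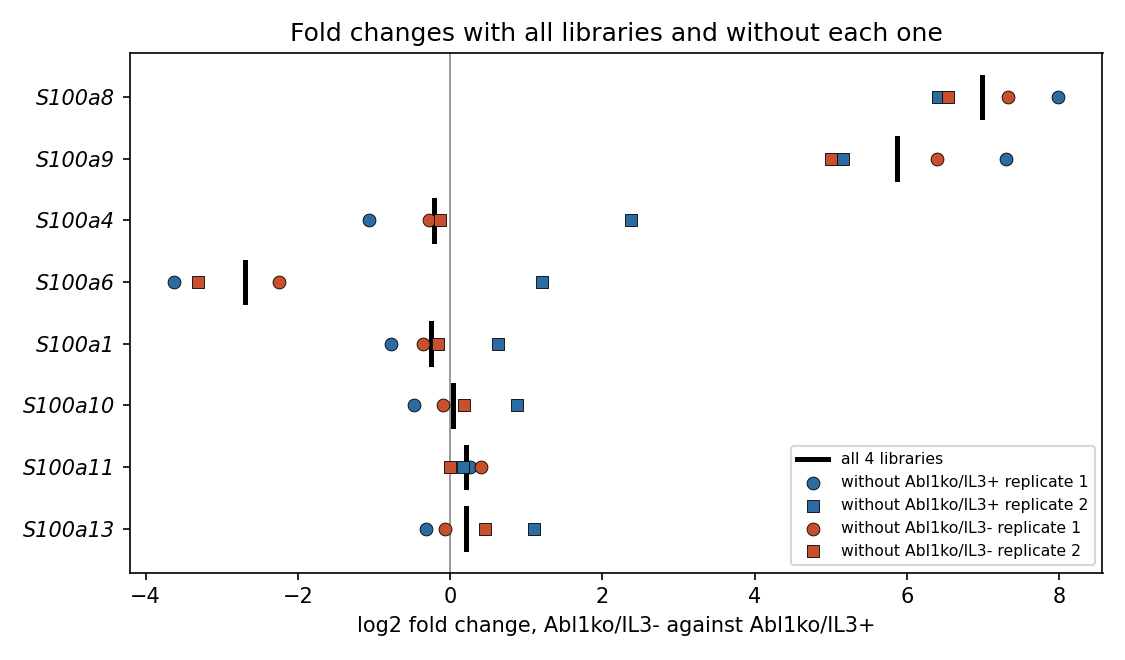
Fitted log2 fold change of each S100A gene, Abl1ko/IL3- over Abl1ko/IL3+. A short black bar marks the fit on all 4 libraries. Coloured points mark the fits with 1 library left out, by the group and replicate of that library. The points of S100a8 (6.40 to 7.98) and S100a9 (5.00 to 7.30) stay above 0 throughout, whereas those of the other 6 genes lie on both sides of 0. Where groups do not overlap, as for S100a8 and S100a9, leaving out 1 library cannot change the sign.

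S100a4 (metastasin, a partner of non-muscle myosin) separated the libraries within one group rather than the groups. It had 2046 and 18941 counts with IL-3 against 8216 and 9061 counts without, or 52.3 and 478 FPKM against 251 and 247 FPKM. Both Abl1ko/IL3- libraries lay between the Abl1ko/IL3+ libraries, which differed by 9.15-fold in FPKM. The mean FPKM was 265 ± 301 with IL-3 and 249 ± 2.74 without it (SD, n = 2 each). The fitted log2 fold change of -0.21 had a within-group SD of 1.73, and its sign changed in 4 of 8 other settings, to 0.64 with the replicate number as a block, and it was 2.37 without Abl1ko/IL3+ replicate 2. S100a4 shares 302 exon bases on its own strand with Gm42674. That gene is not among the 23756 genes counted, so reads from the shared bases may have been counted for S100a4 or left out.

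S100a6 (calcyclin, a partner of the calcyclin-binding protein) varied more still. It had 201 and 4897 counts with IL-3 against 222 and 567 counts without, or 2.18 and 52.8 FPKM against 2.89 and 6.60 FPKM. Abl1ko/IL3+ replicate 2 stood 24.2-fold above replicate 1 in FPKM, a spread at the 98.9th percentile of all genes tested, compared with the 96.9th percentile for S100a4. The log2 fold change of -2.69 rests on that library: it was 1.21 without Abl1ko/IL3+ replicate 2 and -3.63 at the other extreme.

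S100a5, the calcium- and zinc-binding gene that lies between S100a4 and S100a6, had the same order of libraries as S100a4 with IL-3. It reached 7.69 and 42.5 FPKM with IL-3 against 18.9 and 20.1 FPKM without. Its log2 fold change of -0.47 did not pass the test (adjusted p = 0.976 in edgeR). After centring on the mean of the 4 libraries, the log2 profiles of S100a4 and S100a5 were 0.77 apart (Euclidean distance), against 2.35 for S100a4 and S100a6 and 1.18 for S100a8 and S100a9.

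The library in which S100a4, S100a5 and S100a6 were highest was also set apart by markers of other lineages. The 6 erythroid markers summed to 265 and 11226 CPM with IL-3 against 4947 and 2570 CPM without. The alpha globin genes Hba-a1 and Hba-a2 were at 139 and 116 FPKM in Abl1ko/IL3+ replicate 1 and at 6657 and 5017 FPKM in replicate 2, and Klf1, the erythroid transcription factor, was at 32.7 and 114 FPKM. The sum of 6 mast cell and basophil markers went the other way between the same libraries. It was 748 and 116 CPM with IL-3 against 164 and 240 CPM without. Cpa3, a mast cell carboxypeptidase, was at 198 and 13.6 FPKM with IL-3, and Fcer1a, a chain of the IgE receptor, at 187 and 1.03 FPKM. Gata2 was at 39.3 and 5.14 FPKM. Not all of the list followed the sum. With IL-3, Mcpt8 was at 18.3 and 40.5 FPKM and Ms4a2 at 0.623 and 0.969 FPKM, higher in replicate 2. Kit, a defining mast cell receptor, had no more than 4 counts in any library. The part of these lineages in the S100a4 and S100a6 values was not tested.

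**Figure D3:**
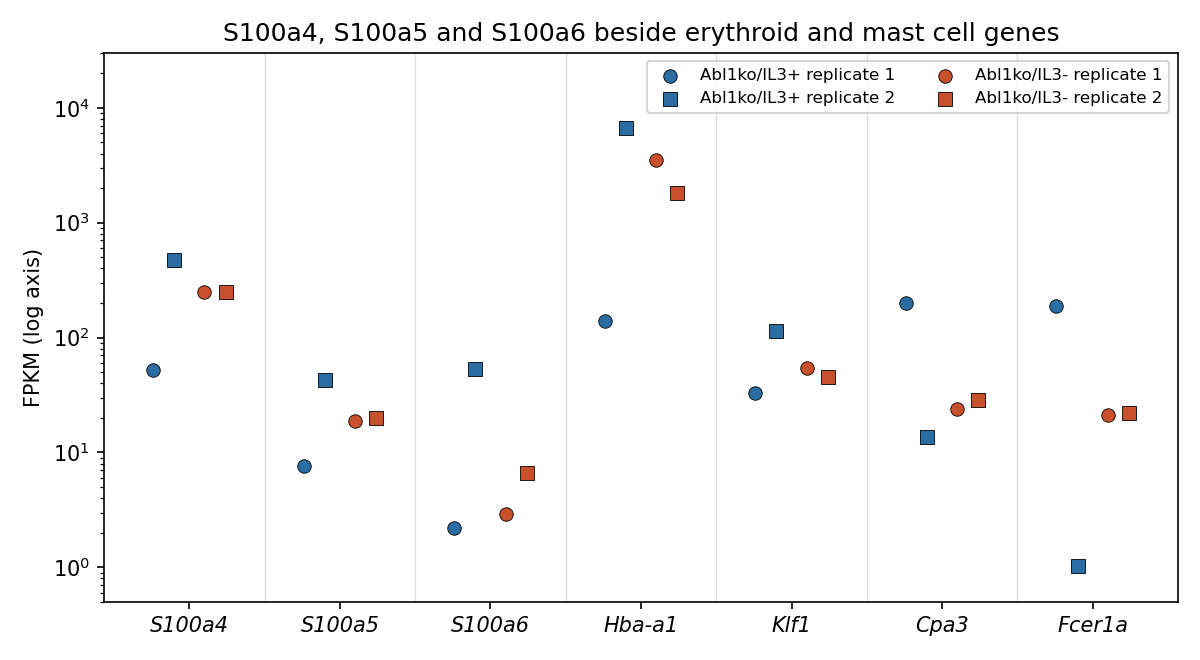
FPKM of S100a4, S100a5, S100a6, the erythroid genes Hba-a1 and Klf1 and the mast cell genes Cpa3 and Fcer1a in each library, on a log axis, with 1 point per library. Abl1ko/IL3+ replicate 2 (blue square) is the highest library for the 3 S100 genes and the erythroid genes and the lowest for Cpa3 and Fcer1a. Mcpt8 and Ms4a2 of the mast cell and basophil list, not drawn, were higher there than in Abl1ko/IL3+ replicate 1.

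S100a1, S100a10 and S100a13 were spread mostly between the Abl1ko/IL3+ libraries too, but less widely than S100a4 and S100a6. S100a1, best known as a regulator of calcium handling in heart muscle, had 3915 and 8847 counts with IL-3 against 4761 and 5084 counts without, or 84.2 and 188 FPKM against 122 and 117 FPKM. S100a13, which takes part in the export of fibroblast growth factor 1, had 1728 and 3957 counts with IL-3 against 3246 and 2752 counts without, or 36.1 and 81.6 FPKM against 81.1 and 61.3 FPKM. S100a10, which does not bind calcium and holds annexin A2 in a complex at membranes, had 9894 and 21359 counts with IL-3 against 14654 and 14819 counts without, or 122 and 260 FPKM against 216 and 195 FPKM. In each of the 3 genes both Abl1ko/IL3- libraries lay within the span of the Abl1ko/IL3+ libraries, as for S100a4, S100a5 and S100a6.

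The log2 fold changes of these genes were -0.26, 0.21 and 0.04, each smaller in size than its own within-group SD of 0.72, 0.77 and 0.69. S100a10 and S100a13, which lie in different blocks of chromosome 3, had the closest pair of profiles in the set at a distance of 0.26. S100a1 and S100a10 were 0.29 apart, and the head-to-head neighbours S100a1 and S100a13 were 0.51 apart. S100a8 and S100a9 were 6.06 to 9.49 from each of the other 6 genes.

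S100a11 (calgizzarin, a partner of annexin A1) had the smallest range over the 4 libraries. It had 19412 and 15476 counts with IL-3 against 13876 and 22473 counts without, or 567 and 446 FPKM against 485 and 701 FPKM. The groups overlapped, and the highest library exceeded the lowest by 1.57-fold in FPKM. The spread of the Abl1ko/IL3+ pair was at the 6.07th percentile of genes tested and that of the Abl1ko/IL3- pair at the 54.6th percentile, where S100a4, S100a1 and S100a10 were lower, at the 20.9th, 27.5th and 38.4th percentiles. The log2 fold change was 0.21 with a within-group SD of 0.21. The table also holds Gm12854 and Gm7665, which match S100a11 at 99.0% and 98.7% over 297 bases. They had 798 to 1578 and 329 to 858 counts, so a small part of the S100a11 reads may have been assigned to them or the reverse.

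By mean FPKM the order with IL-3 was S100a11, S100a4, S100a10, S100a1, S100a13, S100a6, S100a9 and S100a8. Only the steps from S100a1 to S100a13 and from S100a9 to S100a8 separated the ranges of neighbours. Without IL-3 the order was S100a11, S100a9, S100a4, S100a10, S100a8, S100a1, S100a13 and S100a6. There the steps from S100a4 to S100a10, S100a10 to S100a8, S100a1 to S100a13 and S100a13 to S100a6 separated neighbours, each with 2 libraries per gene, and the other steps did not. S100a9 went from rank 7 to rank 2 and S100a8 from rank 8 to rank 5.

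S100a8 and S100a9 together made up 1.68 and 0.194% of the summed FPKM of the 8 genes with IL-3 against 21.5 and 38.2% without. The summed FPKM of the other 6 genes was 863 and 1506 with IL-3 against 1158 and 1328 without. The sums of the 6 genes overlapped between the groups, whereas the shares of the pair did not. Because this contrast was used to choose the set, nothing is read from that difference.

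**Figure D4:**
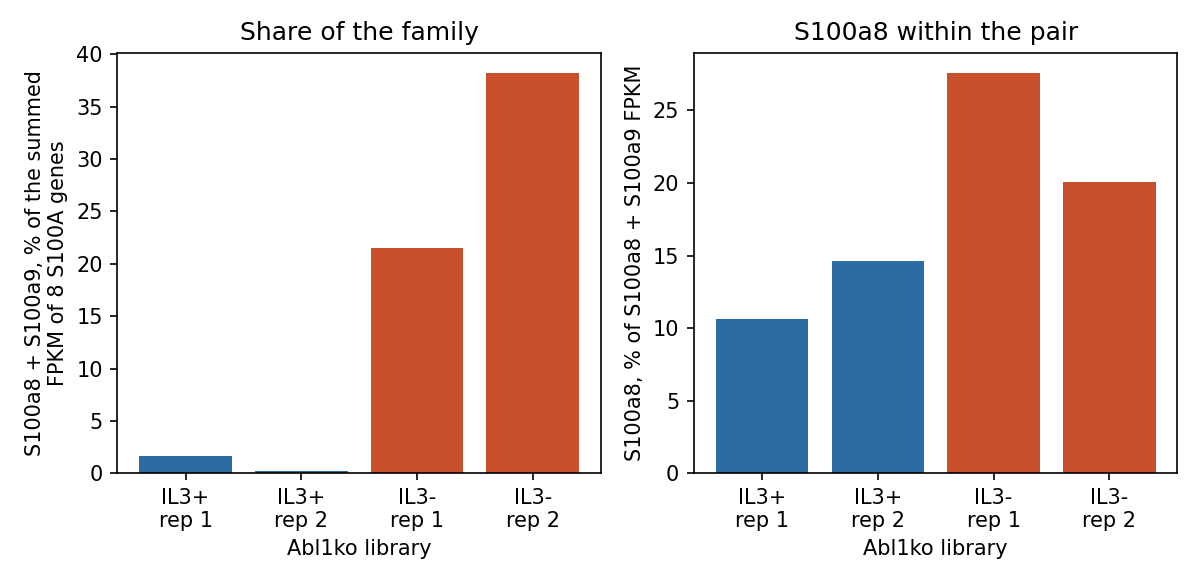
Share of S100a8 and S100a9 in the summed FPKM of the 8 S100A genes in each library, in percent. A separate panel gives the percentage of S100a8 in the summed FPKM of S100a8 and S100a9. The share of S100a8 and S100a9 in the 8 genes is 1.68 and 0.194% with IL-3 against 21.5 and 38.2% without. This contrast was used to choose the set.

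The remaining S100 genes of the table were near the detection limit apart from S100a5. S100a2 had 0 and 22 counts with IL-3 against 0 and 30 without, S100a3 had 0 to 13 counts and S100a14 had 0 to 31 counts in the 4 libraries. S100g, S100a16 and S100b were too low to be tested, with at most 17, 6 and 4 counts. Of the 7 such genes measured, 4 were tested and none passed, and S100a7a, S100a7l2 and S100z were not analysed here.

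Genes of the pathway around the S100 proteins and markers of neighbouring cell types were grouped in lists that were drawn up with earlier results of these data known. Across all 16535 genes edgeR's quasi-likelihood test, adjusted by Benjamini-Hochberg, called 0 (0%) at 0.05, the lowest adjusted p being 0.335. At an unadjusted p under 0.05 it found 978 genes (5.91%), 423 higher without IL-3 (2.56%) and 555 lower (3.36%). DESeq2 called 271 (1.64%), 111 higher (0.671%) and 160 lower (0.968%). Of the 76 list genes tested outside the set, 9 had an unadjusted p under 0.05 and DESeq2 called 6, 4 of them higher and 2 lower.

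Among 8 receptors and co-receptors reported for extracellular S100 proteins, 7 were tested, 1 had an unadjusted p under 0.05 and the median log2 fold change was 0.16. Nptn (neuroplastin), reported to bind S100A8, had 3552 and 2891 counts with IL-3 against 860 and 1258 without, a log2 fold change of -1.45 ± 0.33 (SE) with an unadjusted p = 0.00679 and an adjusted p = 0.727 in edgeR's quasi-likelihood test. The groups did not overlap, and DESeq2 called the gene lower (adjusted p = 0.0358). Bsg (basigin), reported to bind S100A9, was the most abundant of the receptors at 202 and 333 FPKM with IL-3 against 140 and 185 FPKM without (log2 fold change -0.78 ± 0.45, adjusted p = 0.876 in edgeR). Ager, the receptor for advanced glycation end products, was at 0.834 and 0.851 FPKM with IL-3 against 1.51 and 2.08 FPKM without (log2 fold change 1.05 ± 0.51, adjusted p = 0.860 in edgeR). Tlr4 had 605 and 270 counts with IL-3 against 375 and 475 without, so its groups overlapped. Cd14, its co-receptor, had 2 and 0 counts with IL-3 against 8 and 589 without, nearly all in 1 library, and was not tested.

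Of 11 intracellular partners 10 were tested, and none had an unadjusted p under 0.05. The log2 fold change was negative for 9 of them, with a median of -0.59 against -0.03 over all genes tested. The groups did not overlap for 3 of the 10, all lower without IL-3, beside 17.9% of all genes tested. The list was drawn up with earlier results known, so nothing is read from these counts. Anxa2, the partner of S100A10, was at 55.0 and 125 FPKM with IL-3 against 54.7 and 93.8 FPKM without (log2 fold change -0.37 ± 0.58, adjusted p = 0.972 in edgeR). The FPKM ratio of S100a10 to Anxa2 was 2.21 and 2.07 with IL-3 against 3.95 and 2.08 without, so 1 library stood apart and the groups overlapped. Cacybp, the calcyclin-binding protein that partners S100A6, was at 109 and 36.3 FPKM with IL-3 against 39.0 and 76.5 FPKM without. Its order within the Abl1ko/IL3+ pair was opposite to that of S100a6. Myh9, the heavy chain of the non-muscle myosin bound by S100A4, was at 63.5 and 26.6 FPKM with IL-3 against 18.5 and 29.5 FPKM without (adjusted p = 0.870 in edgeR).

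Of 9 transcription factors of granulocyte differentiation, all tested, 1 had an unadjusted p under 0.05, and the median log2 fold change was -0.35. Gfi1, a repressor needed for neutrophil production, had 657 and 340 counts with IL-3 against 80 and 110 without (log2 fold change -2.20 ± 0.53, adjusted p = 0.727 in edgeR and 0.0117 in DESeq2). Spi1, which encodes PU.1, was at 42.2 and 39.1 FPKM with IL-3 against 24.9 and 38.8 FPKM without, a log2 fold change of -0.38 ± 0.34. Cebpe, the C/EBP member of late granulocyte stages, was at 311 and 146 FPKM with IL-3 against 125 and 230 FPKM without, and Myb, a progenitor factor, at 80.4 and 30.8 against 57.6 and 70.8 FPKM. The groups overlapped for Cebpe and Myb.

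The neutrophil maturation list held 12 genes, of which 9 were tested, 3 were higher at an unadjusted p under 0.05 and none was lower. The median log2 fold change was 1.87. Ltf (lactoferrin) had 406 and 197 counts with IL-3 against 2188 and 19613 without (log2 fold change 5.27 ± 1.12, adjusted p = 0.727 in edgeR and 2.0e-06 in DESeq2). Ly6g, the surface marker of mouse neutrophils, had 164 and 44 counts with IL-3 against 836 and 2646 without (log2 fold change 4.23 ± 0.86, adjusted p = 0.726 in edgeR and 2.0e-05 in DESeq2). Camp, the cathelicidin gene, had 4 and 0 counts with IL-3 against 21 and 193 without. For Ltf, Ly6g and Camp both Abl1ko/IL3- libraries were above both Abl1ko/IL3+ libraries, as for S100a8 and S100a9. The same held for 19.4% of all genes tested. Camp passed the filter only through the libraries without IL-3, so its lack of overlap was fixed in advance. For Ltf, Ly6g and Camp the order of the replicates in each pair was also that of S100a8 and S100a9.

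The groups overlapped for the other 6 tested genes of the list, and over all 9 the log2 fold change was positive for 7 and negative for 2. Ngp, a granule protein gene, was at 541 and 158 FPKM with IL-3 against 427 and 3031 FPKM without, and Lcn2 (lipocalin 2) at 36.6 and 14.5 against 19.2 and 169 FPKM. Cxcr2, a chemokine receptor of mature neutrophils, went the other way, with 8922 and 3387 counts with IL-3 against 835 and 5169 without (log2 fold change -0.91 ± 0.85, adjusted p = 0.933 in edgeR), and the log2 fold change of Mmp9 was -0.33 ± 0.67. Itgam, an integrin chain, was at 0.28 ± 0.68, and Csf3r, the G-CSF receptor, had 29 and 0 counts with IL-3 against 12 and 45 without. The list summed to 1322 and 503 CPM with IL-3 against 931 and 5427 CPM without, so the sum overlapped between groups and was highest in Abl1ko/IL3- replicate 2, where S100a8 and S100a9 were highest too. Mmp8, with 0 and 0 counts with IL-3 against 18 and 7 without, did not overlap between the groups but was too low to be tested, as were Retnlg and Chil3, with at most 4 and 8 counts. The part of more mature granulocytic cells in the S100a8 and S100a9 values was not tested.

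Markers of other cell types moved as follows. Mpo was 528 and 346 FPKM with IL-3 against 227 and 135 FPKM without, the only one of the 5 promyelocyte genes with an unadjusted p under 0.05 (log2 fold change -1.25 ± 0.44, adjusted p = 0.827 in edgeR). The monocyte and macrophage list summed to 329 and 81.3 CPM with IL-3 against 176 and 705 CPM without. In it Lyz2 (lysozyme) had 941 and 1193 counts with IL-3 against 3588 and 28226 without (log2 fold change 3.94 ± 0.98, adjusted p = 0.727 in edgeR and 0.00094 in DESeq2). Adgre1 overlapped between groups at 59.6 and 11.2 against 13.8 and 32.5 FPKM. Ly6c2 had 83 and 0 counts with IL-3 against 0 and 0 without, all in 1 library, and did not pass the filter. Cx3cr1, with at most 4 counts, was too low to be tested. The T cell list stayed at or below 5.30 CPM in sum, although Cd3d (0 and 8 against 45 and 170 counts) and Cd3g (27 and 6 against 44 and 130 counts) both had an unadjusted p under 0.05 in edgeR. Neither was called by DESeq2.

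**Figure D5:**
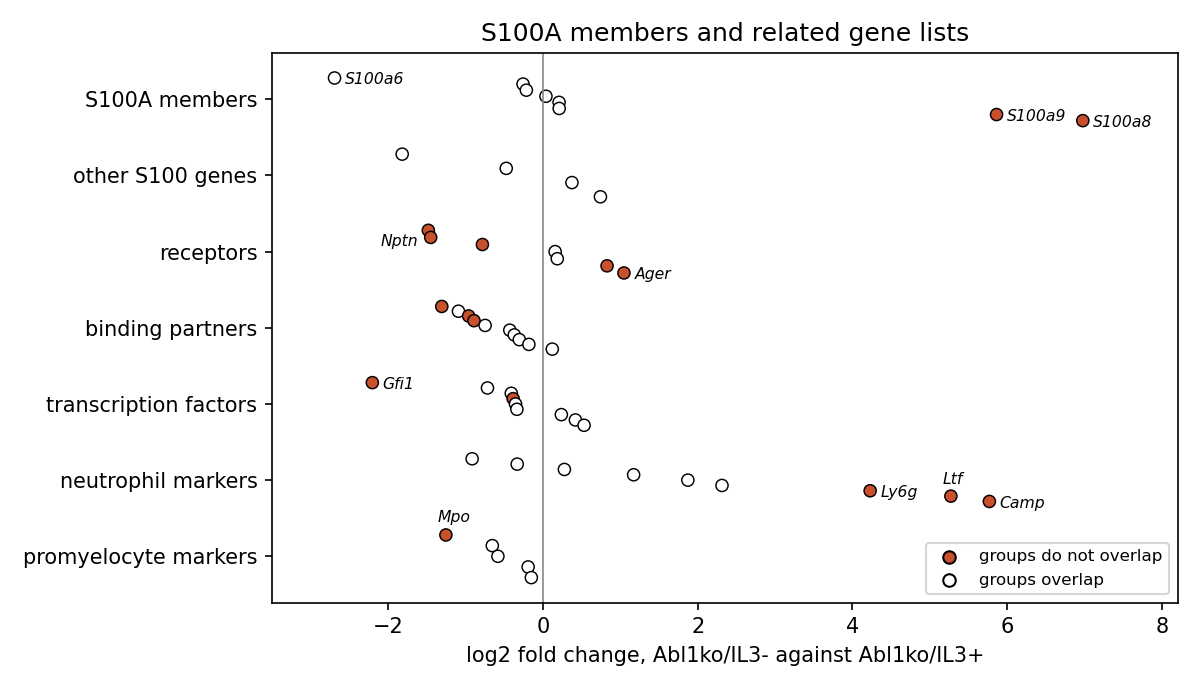
Fitted log2 fold change, Abl1ko/IL3- over Abl1ko/IL3+, of every tested gene in the S100A set and the S100, receptor, binding partner, transcription factor, neutrophil and promyelocyte lists, with 1 point per gene, filled where the groups do not overlap. S100a8 (6.98) and S100a9 (5.86) lie at the upper end near Camp (5.77), Ltf (5.27) and Ly6g (4.23). Of 10 binding partners 9 lie below 0, none with an unadjusted p under 0.05 in edgeR, and the median of all genes tested is -0.03.

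The genes whose profiles over the 4 libraries were nearest to those of S100a8 and S100a9 came largely from the stefin A cluster of cysteine protease inhibitors. Among 12854 other genes with a mean of at least 1 CPM, the 5 nearest to S100a8 were Gm5416 (distance 0.52), Stfa1 (1.01), Stfa2 (1.30), Gm9732 (1.33) and BC100530 (1.39). The 5 nearest to S100a9 were Stfa2l1 (0.44), BC100530 (0.46), Gm5416 (0.74), Gm5483 (0.95) and BC117090 (0.96). Stfa2l1 had 102 and 22 counts with IL-3 against 1164 and 4844 without, and Stfa1 had 24 and 12 against 780 and 2324. Gm5416 and BC100530 appeared beside both genes. Gm5416 had 7 and 0 counts with IL-3 against 255 and 607 without. Stfa2 had 0 and 0 against 252 and 666, and Gm9732 0 and 0 against 149 and 181. Gm5416, Stfa2 and Gm9732 reached the mean of 1 CPM only through the libraries without IL-3. Their distances therefore depend on the small count added before taking logs. Stefin A genes are near-identical copies of each other, so the split of reads among them is uncertain.

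Between the first and the last gene of the set lie 16 other genes of the table, of which 10 were tested and none had an unadjusted p under 0.05. Their median log2 fold change was -0.21. Among those with counts in all 4 libraries the lowest values were those of Rplp0-ps1, with 132 and 208 counts against 20 and 65 (log2 fold change -1.93 ± 0.77), and Gm4202, with 351 and 104 against 54 and 114 (-1.25 ± 0.74). The highest were Gm5850 and Gm9774, at -0.00 and -0.05.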

How the data were processed

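Ribosomal RNA-depleted total RNA of 4 libraries was sequenced, 2 Abl1ko/IL3+ and 2 Abl1ko/IL3-, grouped by the labels. The authors deposited raw counts per gene, without normalization, and FPKM values. The methods of the study name Rsubread and featureCounts on GRCm38, whereas the submitters' processing notes name STAR, Cuffdiff and mm10. Versions and the strand setting are not given in the sources used here. Dividing deposited counts by deposited FPKM gave the same implied length in each library, with a ratio of at most 1.04 for 99% of 12946 genes, so the FPKM are those counts rescaled for length and depth. Without a stated strand setting, overlapping genes cannot be told apart.

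The 8 members, the gene lists and the alternatives were chosen with earlier results of these data known. Genes were filtered with filterByExpr (16535 of 23756 kept, all 8 members among them), scaled by TMM (factors 0.901 to 1.08) and tested with the two-sided quasi-likelihood F test of edgeR 4.0.16 in R 4.3.3, with Benjamini-Hochberg adjustment over all genes tested and a threshold of 0.05. Every pair of libraries differed beyond sampling noise (chi-square per degree of freedom 246 to 648), so each counts as 1 sample. The largest value, 648, was that of the Abl1ko/IL3+ pair and the smallest, 246, that of the Abl1ko/IL3- pair. Pairs across the groups were at 349 to 544, so the Abl1ko/IL3+ libraries were less alike than any pair across the groups. Library totals set the precision, and intervals of counting error do not cover differences between cultures. Among counts of 1 to 20, 57.7 to 59.9% were even numbers in each library. The reason was not tested, so low counts are to be read with caution. With 2 libraries a group, p-values measure only the spread between these libraries.

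Named were all members, other S100 genes with counts, list genes with an unadjusted p under 0.05, the 2 genes of highest mean FPKM in each list, the 5 nearest profiles to S100a8 and to S100a9, and neighbours with the lowest and highest fold changes. Other genes in the text (among them Ager, Tlr4, Cd14, Spi1, Ly6c2, Cx3cr1, Kit, Retnlg, Mmp8, Chil3, Cxcr2, Mmp9, Itgam, Csf3r, Myh9 and Klf1) were named after their values were seen. Profile distance is Euclidean on log2 CPM (prior count 2) centred on the mean. Promoter windows came from RefSeq (GRCm38.p6), positions from the files and GENCODE M21, and near copies from BLAST 2.17.0 (at least 95% identity over 100 bases). Alternatives were DESeq2 1.42.0, library size only, no filter, 10 counts in every library, a replicate block, limma 3.58.1 on log2(FPKM + 1) and log2(FPKM + 0.1), other lengths and leaving out each library. The fit was also run on simulated data with planted changes. Their recovery was required only at a low simulated spread, so the run does not measure recovery at the spread of these libraries.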

Additional observations from a re-analysis of the deposited data

How the results depend on the processing

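With 2 libraries a group, the count of genes called depended on the tool. edgeR's quasi-likelihood test and limma called 0 of all genes in every setting with 4 libraries, whereas DESeq2 called 271 genes and 6 of the list genes. Leaving out 1 library gave 0 to 15 genes and 0 to 2 list genes (15 and 2 without Abl1ko/IL3- replicate 1, namely Ltf and Lyz2), the lone library being assumed to vary like the other group. The gap between S100a8 with S100a9 and the other members was 5.68 to 6.51 in the other settings and 4.80 to 8.27 when a library was left out. The fold changes of S100a8 and S100a9 stayed above 0 in all 12 settings. Their groups did not overlap, so leaving out 1 library could not change the sign, and nothing is read from this. Leaving out a library changed the sign for each of the other 6 members, whose groups overlapped, and the other settings did so for S100a4 only. S100a8 was 5.99 with limma on log2(FPKM + 1), which understates changes of low genes. Counts per kilobase of gene span kept 9 of the 16 ranks of the level order, and the GENCODE exon union, chosen after seeing the data, kept all 16. Library size without TMM moved the median of all genes by 0.03.

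The shared replicate numbers do not pair the libraries by any label, and same-numbered libraries deviated with a correlation of -0.19. With a replicate block, 0 genes and 0 list genes were called and the gap was 6.38. S100a6 moved from -2.69 to -1.33 under the block. The crossed pairing, chosen after seeing the data, called 0 genes and 0 list genes, and S100a6 was -1.32 under it. Without any block, S100a6 was -1.27 and -1.29 with limma on log2(FPKM + 1) and log2(FPKM + 0.1). The move of S100a6 was therefore not particular to the replicate block.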

Other observations

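The genes with profiles nearest to S100a4 and S100a6 were looked up after the values were seen, by the same distance as for S100a8 and S100a9. Aqp9, a water and glycerol channel, was 0.25 from S100a4, with 1364 and 10384 counts in Abl1ko/IL3+ and 4403 and 5211 in Abl1ko/IL3-. Gm8355 was 0.24 from it, with 2133 and 19105 against 10235 and 10318 counts, so both genes had their lowest and highest value in the Abl1ko/IL3+ pair, as S100a4 did. Ptms (parathymosin) was 0.56 from S100a6, with 168 and 4728 counts against 148 and 330. Clec11a, which encodes a secreted growth factor of the C-type lectin family, was 0.63 from it, with 63 and 2634 counts against 77 and 175. Stefin A genes were not among the 5 nearest to either gene.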
